A study of Rattus norvegicus with 19 samples.

Results

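Amino acid transporters are membrane proteins that carry amino acids into and out of cells, and the 10 described here were measured in the livers of adult rats given pregnenolone-16α-carbonitrile (PCN) or its vehicle. They are Slc43a1, Slc3a2, Slc7a1, Slc7a2, Slc7a5, Slc38a2, Slc38a3, Slc38a4, Slc1a2 and Slc1a4, out of 13810 named genes on the arrays. Every probe set annotated to exactly 1 of these genes was taken, which gave 13 probe sets. The set was chosen by a measured value, the rise of Slc43a1 after PCN in these same data, with the other genes as its context. The values of Slc43a1 are therefore given as a description with no test.

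PCN is a synthetic steroid that activates the pregnane X receptor of rodents, a nuclear receptor known for switching on drug metabolism genes. The treated rats had a single intraperitoneal injection of 100 mg/kg PCN and the controls one of corn oil. Both groups had been fasted overnight beforehand, and livers were collected 8 h after injection. There were 5 biological replicates per group, numbered 1 to 5 in the labels, and 2 Affymetrix array types. The first array type had 5 corn oil and 5 PCN arrays. The second had 4 corn oil and 5 PCN arrays, as the labels list none of that type for corn oil replicate 2. The labels give neither strain nor sex, and call the rats adult. The study asked whether PCN acts on genes apart from those of drug metabolism.

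The liver takes up most amino acids arriving from the gut and, during a fast, from muscle, and it uses them for protein synthesis, glucose production and urea synthesis. Transporters differ in what they carry: some exchange an amino acid inside the cell for another outside, some are driven by the sodium gradient, and some let amino acids pass down their own gradient. Several of their genes are known to respond to amino acid shortage through the transcription factor Atf4, which binds an amino acid response element.

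Values are log2 expression per probe set as deposited, so a difference of 1 is a doubling. Levels of different probe sets cannot be set against each other, and only differences between groups are compared. Of the 13 probe sets, 10 had a mean above the brightness filter and were tested, 1 for each gene. The 3 others, 2 of Slc7a1 and 1 of Slc1a2, were too dim. By limma at an adjusted p below 0.05, 3.25% of all probe sets were called on the first array type (2.31% higher after PCN, 0.945% lower). The second had 5.4% (3.76% higher, 1.64% lower), or 402 probe sets higher and 175 lower. This split moved to 518 and 72 with a common median, 397 and 478 with a trimmed mean, and 210 and 6283 when arrays were centred on the 100 probe sets that both types hold. On the first type the split of 256 and 105 moved to 247 and 181 with quantile normalization, 256 and 176 with a trimmed mean, 270 and 168 with cyclic loess and 214 and 252 with that centring. At an unadjusted p below 0.05 (limma) were 1964 of 11106 probe sets of the first array type. On the second they were 2919 of 10693. Among the transporters, 0 of the 8 tested on the first array type were called (1 had an unadjusted p below 0.05), and on the second Slc1a4 was not called either. Slc43a1, whose rise chose the set, is left out of this count. On the first array type 5 of the 8 had a positive log2 fold change with a median of 0.07, beside 50.02% positive and a median of 0.00 for all probe sets.

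**Figure D1:**
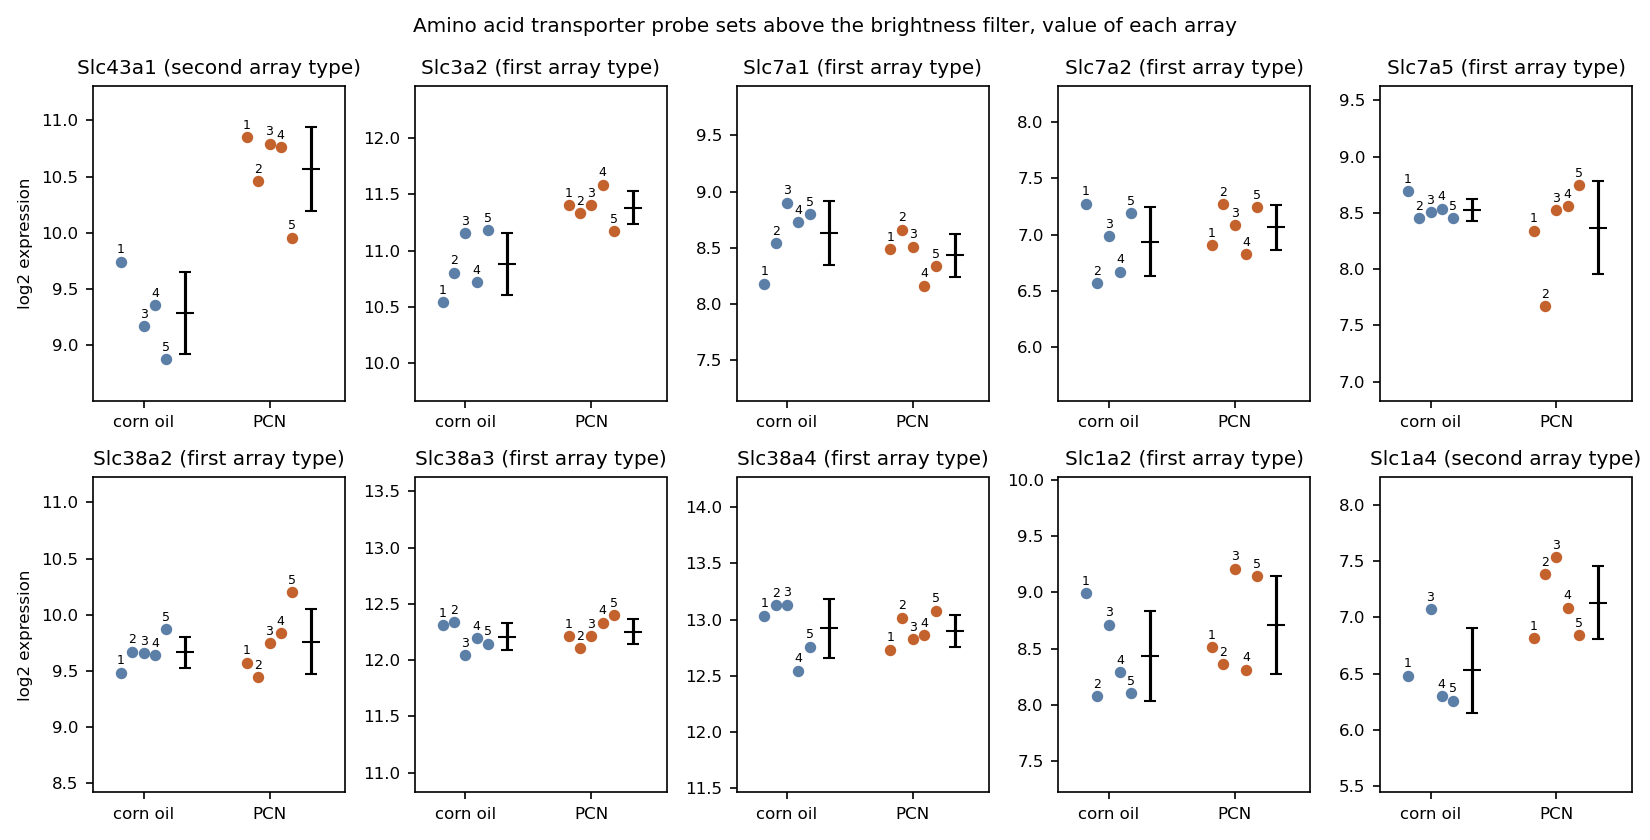
Log2 expression of each array (points, labelled with the replicate number) for the 10 tested probe sets, corn oil in blue and PCN in orange, with the mean and SD in black. Every vertical axis spans the same log2 range at a different level, the horizontal place within a group carries no meaning, and the groups are apart without overlap for Slc43a1 alone.

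Slc43a1 encodes LAT3, a sodium-independent carrier that lets large neutral amino acids such as leucine, valine and phenylalanine pass down their gradient. Its only probe set was on the second array type. It read 9.74, 9.17, 9.36 and 8.87 in corn oil replicates 1, 3, 4 and 5. After PCN it read 10.85, 10.46, 10.79, 10.76 and 9.96 in replicates 1 to 5. The lowest PCN array, replicate 5, lay above the highest corn oil array, replicate 1, so the groups did not overlap, as was the case for 10.4% of all probe sets there. The means were 9.29 ± 0.36 (SD, n = 4) and 10.57 ± 0.37 (SD, n = 5), a 2.43-fold difference (log2 fold change 1.28 ± 0.20 SE). By size this was rank 14 among the 10693 probe sets tested.

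The arrays of the second type also differed in level, in a direction that depended on the probe sets taken. The median over all probe sets was between 6.32 and 6.327 in corn oil and between 6.25 and 6.318 after PCN. By this median PCN replicate 5 was the highest PCN array. Over the 100 probe sets that both types hold, called the common probe sets below, the mean was between 9.21 and 9.45 in corn oil and between 9.41 and 9.73 after PCN. PCN replicate 5, the lowest PCN array for Slc43a1, was also the lowest PCN array by the mean of the common probe sets. After centring each array on these probe sets the log2 fold change of Slc43a1 was 0.9996. It was 1.06 after quantile normalization, 1.22 with a trimmed mean and 1.33 with a common median. With any single array left out it lay between 1.14 and 1.43. Its relative Slc43a2 encodes another carrier of large neutral amino acids. On the same arrays Slc43a2 had an uncentred log2 fold change of 0.27 ± 0.10 (SE) and missed the threshold (adjusted p = 0.121, limma). The centring on the common probe sets lowers the log2 fold change of every probe set of these arrays by the same amount.

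The stretch of 250 bases before the annotated start of transcription is shown for Slc43a1 and for the 2 transporter genes whose stretch held a core of the amino acid response element. The sequences are from RefSeq on the rat assembly GRCr8 and run 5′ to 3′ on the strand of the gene. The element core searched was TGATGNAA on both strands, and a match is in capitals.
Slc43a1: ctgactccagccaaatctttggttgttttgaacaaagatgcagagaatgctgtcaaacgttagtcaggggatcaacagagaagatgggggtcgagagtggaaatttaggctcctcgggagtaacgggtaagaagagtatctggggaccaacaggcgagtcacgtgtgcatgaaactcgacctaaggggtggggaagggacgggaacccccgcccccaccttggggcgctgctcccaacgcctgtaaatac
Slc1a4: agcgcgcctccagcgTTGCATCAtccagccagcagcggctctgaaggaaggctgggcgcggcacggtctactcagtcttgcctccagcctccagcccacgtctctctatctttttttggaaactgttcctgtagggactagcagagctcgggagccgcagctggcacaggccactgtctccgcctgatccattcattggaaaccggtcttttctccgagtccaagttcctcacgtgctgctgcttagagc
Slc7a1: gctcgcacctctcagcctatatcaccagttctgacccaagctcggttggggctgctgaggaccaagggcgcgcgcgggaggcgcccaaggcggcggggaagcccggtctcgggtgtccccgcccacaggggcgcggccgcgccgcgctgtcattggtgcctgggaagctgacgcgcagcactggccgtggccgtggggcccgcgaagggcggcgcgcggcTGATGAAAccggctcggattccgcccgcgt
They lie at chr3:90327072-90327321 on the plus strand, chr14:98761563-98761812 on the minus strand and chr12:11664238-11664487 on the plus strand. The match of Slc1a4 is on the opposite strand at positions -235 to -228 from the start, and that of Slc7a1 on the gene's own strand at -30 to -23. RefSeq windows were found for 8 of the 10 genes, with 10 windows in all, and the core was in the windows of 2 genes. It was in 3.4% of all 33469 windows of this length. Pairs of AGTTCA or AGGTCA half-sites, arranged as the pregnane X receptor is known to bind them, were searched on both strands as direct repeats with a spacer of 3 or 4 bases and as everted repeats with a spacer of 6. They were in 0.0388%, 0.0149% and 0.00299% of all windows and in those of 0 of the 8 genes, which says only that these letters are not in these windows. Neither Slc1a4 nor Slc7a1 passed the threshold; their values are given in the next paragraphs.

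Slc1a4 encodes ASCT1, an exchanger of alanine, serine, cysteine and other small neutral amino acids. On the second array type it read 6.48, 7.08, 6.30 and 6.26 in corn oil replicates 1, 3, 4 and 5, and 6.81, 7.38, 7.53, 7.09 and 6.84 in PCN replicates 1 to 5. Corn oil replicate 3 stood above the other corn oil arrays and above 2 PCN arrays, so the groups overlapped. The log2 fold change was 0.60 ± 0.18 (SE), or 1.52-fold, and missed the threshold (adjusted p = 0.0754, limma). Dropping corn oil replicate 3 gave 0.78 (adjusted p = 0.0362) and dropping PCN replicate 5 gave 0.67 (adjusted p = 0.0428), both past the threshold. Over all alternatives the adjusted p ranged from 0.0292 to 0.18. Centring on the common probe sets brought the log2 fold change to 0.32 (adjusted p = 0.0673), the level of these probe sets being given above beside Slc43a1. With a common median it was 0.65 (adjusted p = 0.067, limma). Array weights gave 0.67 (adjusted p = 0.0366).

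Slc1a2, of the same family, encodes the glutamate transporter GLT-1, which in liver is known for the hepatocytes around the central vein. Its brighter probe set on the first array type read 8.99, 8.08, 8.71, 8.29 and 8.10 in corn oil replicates 1 to 5 and 8.51, 8.36, 9.21, 8.31 and 9.14 after PCN. Both groups were spread over about the same range, with 2 PCN arrays above all corn oil arrays. The log2 fold change of 0.27 ± 0.23 (SE) missed the threshold (adjusted p = 0.576, limma), with a 95% interval from -0.22 to 0.76. The other probe set of Slc1a2 was dim, between 5.39 and 5.66 in all arrays. Of 8 tested genes of hepatocytes around the central vein limma called 0, with a median log2 fold change of -0.04. Of these 1 had an unadjusted p below 0.05, beside 1964 of 11106 probe sets in all. Glul, the glutamine synthetase of the same cells, had a log2 fold change of 0.06 ± 0.16 (SE). The smallest p-values of the list were those of Axin2, a target of Wnt signalling, at -0.28 ± 0.12 (SE; adjusted p = 0.267), and of Slc13a3, a carrier of dicarboxylates, at -0.27 ± 0.15 (SE; adjusted p = 0.392).

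Slc3a2 encodes the CD98 heavy chain, which brings light chains such as Slc7a5 to the cell surface. It read 10.54, 10.80, 11.15, 10.72 and 11.18 in corn oil replicates 1 to 5 and 11.40, 11.34, 11.40, 11.59 and 11.18 after PCN, on the first array type. The groups met at a single point, since 4 PCN arrays lay above all corn oil arrays and PCN replicate 5 lay level with corn oil replicate 5. The log2 fold change was 0.50 ± 0.13 (SE), or 1.41-fold, with a 95% interval from 0.21 to 0.79, and it missed the threshold over all probe sets (adjusted p = 0.0634, limma). The adjusted p lay between 0.0531 and 0.154 in the 23 alternative settings, so that none of these called it, and the log2 fold change between 0.42 and 0.58.

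Slc7a5 encodes LAT1, the light chain that exchanges large neutral amino acids. It read 8.69, 8.45, 8.50, 8.54 and 8.46 in corn oil replicates 1 to 5, and 8.34, 7.67, 8.52, 8.56 and 8.74 after PCN. PCN replicate 2 was the lowest of all 10 arrays and PCN replicate 5 the highest. The log2 fold change was -0.16 ± 0.17 (SE; adjusted p = 0.665, limma) and became 0.01 without PCN replicate 2. Across the same arrays the heavy chain and the light chain did not keep the same order, PCN replicate 5 being the lowest PCN array for Slc3a2 and the highest for Slc7a5. On the first array type PCN replicate 2 and corn oil replicate 2 lay furthest from the rest of their groups over all probe sets, with a median absolute difference of 0.19 for both, beside 0.09 to 0.17 for the others.

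Slc7a1 and Slc7a2 encode CAT1 and CAT2, carriers of arginine, lysine and ornithine; the second is the form known in adult liver. The tested probe set of Slc7a1 read 8.18, 8.54, 8.90, 8.73 and 8.80 in corn oil replicates 1 to 5 and 8.49, 8.66, 8.51, 8.16 and 8.34 after PCN. No PCN array lay above the highest corn oil array, yet the ranges overlapped widely, with a log2 fold change of -0.20 ± 0.14 (SE; adjusted p = 0.505, limma). The 2 dim probe sets of Slc7a1 lay between 5.33 and 6.18, with log2 fold changes of 0.03 and -0.09 outside the test. Slc7a2 ranged from 6.57 to 7.27 in corn oil and from 6.82 to 7.27 after PCN. Its log2 fold change of 0.13 ± 0.14 (SE; adjusted p = 0.695, limma) had a 95% interval from 0.88-fold to 1.36-fold.

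The Slc38 genes carry small neutral amino acids together with sodium. Slc38a2 encodes SNAT2, the system A carrier known to be raised by amino acid shortage, and read 9.48 to 9.87 (median 9.66) in corn oil and 9.44 to 10.20 (median 9.75) after PCN. PCN replicate 5 gave the highest value and PCN replicate 2 the lowest, both outside the corn oil range. Its log2 fold change was 0.10 ± 0.14 (SE; adjusted p = 0.762, limma), and without PCN replicate 5 it was -0.01. Slc38a3 encodes SNAT3, which carries glutamine and histidine and is known as the system N carrier of liver. It ranged from 12.05 to 12.34 in corn oil and from 12.11 to 12.40 after PCN. With a log2 fold change of 0.05 ± 0.08 (SE; adjusted p = 0.807, limma) it had the narrowest interval of the tested transporters, from 0.91-fold to 1.17-fold. After centring on the common probe sets its log2 fold change was -0.03. Slc38a4 encodes SNAT4, a system A carrier known from liver, and ranged from 12.55 to 13.13 in corn oil and from 12.73 to 13.08 after PCN. Its log2 fold change of -0.02 ± 0.12 (SE; adjusted p = 0.95, limma) had a 95% interval from 0.83-fold to 1.18-fold, and its sign turned under 6 of 23 alternative settings, given in the closing section.

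**Figure D2:**
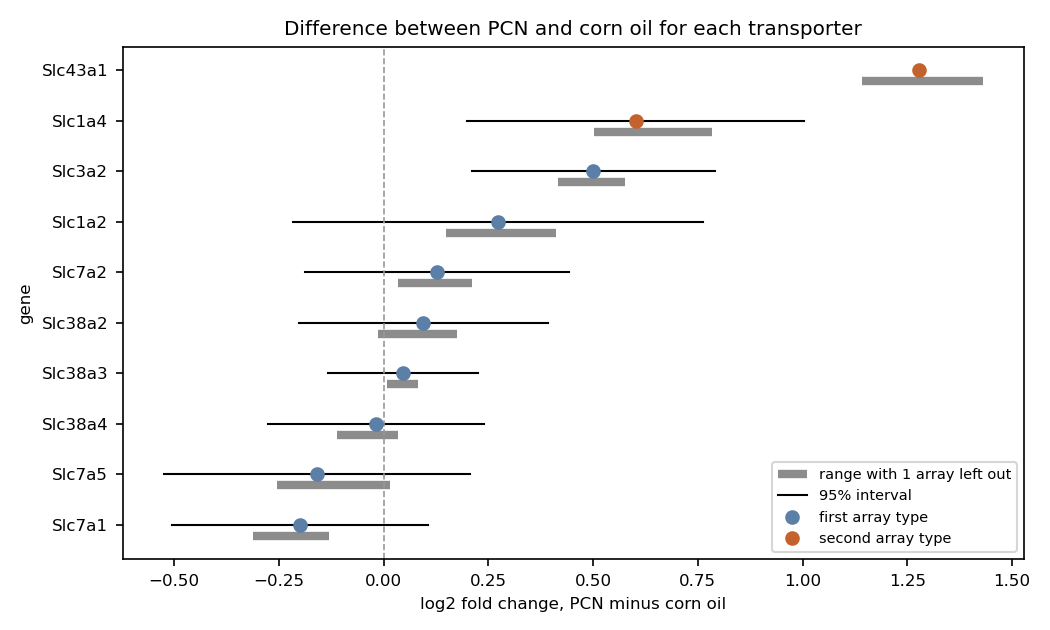
Log2 fold change of PCN over corn oil for the 10 tested transporters (points, coloured by array type), with the range of estimates when any single array was left out (grey bar) and, except for Slc43a1, whose rise chose the set, the 95% interval of the limma fit (black line). The intervals are not adjusted for the number of probe sets; those of Slc1a4 and Slc3a2 lie above 0 and the other 7 include 0.

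The pattern of Slc43a1 over the 9 arrays of the second type was compared with 5916 other probe sets of single genes, each centred on its own mean. The measure was the root mean square difference, whose median over all of them was 0.73. The 5 nearest were Gramd2b at 0.21, Ggct at 0.25, Smarca2 at 0.30, Cpeb4 at 0.30 and Dennd2a at 0.30. Ggct encodes an enzyme of the glutathione cycle, Smarca2 an ATPase of a chromatin remodelling complex and Cpeb4 a protein that binds messenger RNA tails. They were selected for likeness to Slc43a1, so that their being higher after PCN is no test, and all 6 shared a PCN replicate 5 below the other PCN arrays. This array was also the lowest PCN array in the mean of the common probe sets.

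**Figure D3:**
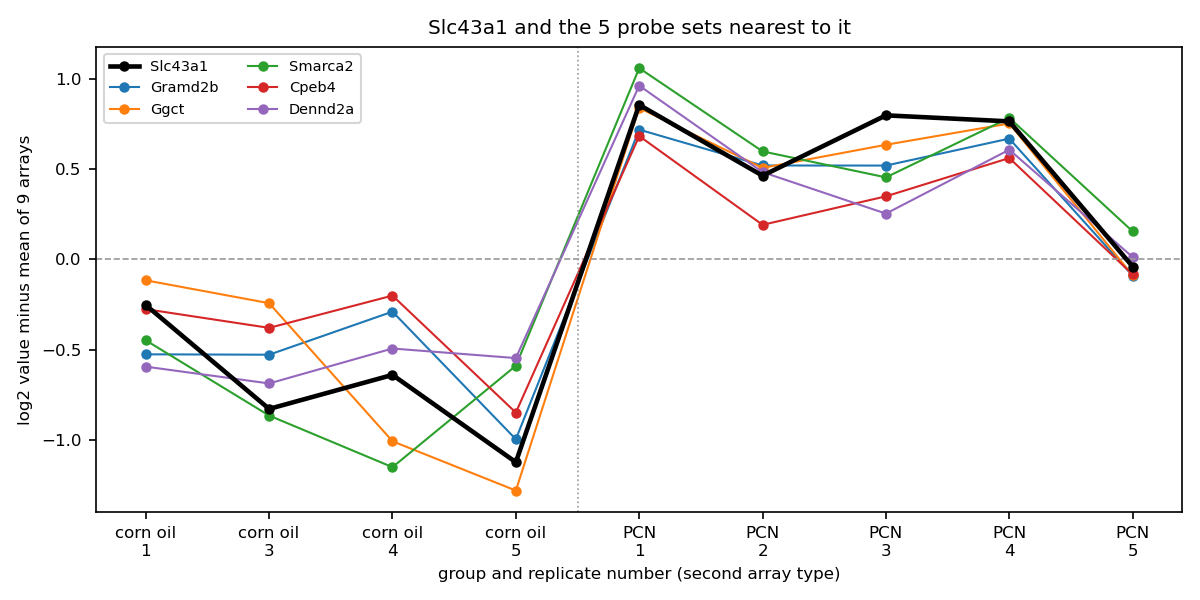
Log2 value minus the mean of 9 arrays (vertical axis) for Slc43a1 (black) and the 5 probe sets nearest to it, on each array of the second type (horizontal axis, group and replicate number). Lines join the values of a probe set and imply no order of the arrays. PCN replicates 1 to 4 lie above the mean for all 6, and PCN replicate 5 lies close to it.

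The other genes were taken from 7 lists, with the brightest probe set of a gene on each array type. These lists were chosen with earlier results of these data known, so the shares of calls below are a description and no test. The lists hold genes of amino acid handling and genes of hepatocytes around the central and portal veins. The vein lists, chosen for place in the liver, gave 8 and 11 of the genes tested on the first array type. On the second they gave 1. Of 89 genes tested on the first array type 5 were higher and 2 lower (7.87% called), beside 3.28% of all genes represented in this way (2.3% higher, 0.979% lower). Of 24 on the second 3 were higher and 1 lower (16.7%), beside 6.53% (5.33% higher, 1.19% lower). The count of 11 over both became 19 after centring on the common probe sets and ranged from 2 to 9 when any single replicate was dropped. Of the 11 calls, those of Slc25a12 and Ppp1r15a were kept when any single array was dropped.

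Carriers of the cell surface outside the 10 gave no call on either array type, with limma calling 0 of 12 on the first and 0 of 3 on the second, and 2 in all when PCN replicate 5 was dropped. At an unadjusted p below 0.05 there were Slc16a10, Slc6a9 and Slc43a2. Slc16a10, which carries aromatic amino acids, had a log2 fold change of -0.61 ± 0.20 (SE; adjusted p = 0.123). Slc6a9, a glycine transporter, had one of -0.40 ± 0.15 (SE; adjusted p = 0.169). On the first array type 2 of the 12 had a positive value, and their median was -0.07. Slc7a7, a light chain of the CD98 heavy chain for cationic amino acids, had the largest positive value of this list, 0.47 ± 0.22 (SE; adjusted p = 0.292), and was picked out after its values were seen.

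Among mitochondrial carriers Slc25a12, an exchanger of aspartate and glutamate, rose 2.16-fold. It went from 7.74 ± 0.18 to 8.85 ± 0.28 (SD, n = 5 each), with no overlap of the groups (6.04% of all probe sets) and an adjusted p of 0.00154 by limma. Its call was kept in all 23 alternative settings. It was 1 of 8 carriers called on the first array type. Slc25a13, the aspartate and glutamate exchanger known as the main form of liver, rose 1.41-fold on the second array type (log2 fold change 0.50 ± 0.10 SE, adjusted p = 0.025, limma), 1 of 3 called there. On the first array type Slc25a13 had a log2 fold change of 0.11 ± 0.13 (SE; adjusted p = 0.71). On the second, dropping any 1 of 6 arrays ended the call (corn oil replicates 1, 3 and 4, PCN replicates 1, 2 and 4; highest adjusted p 0.0796), as did cyclic loess (0.16, adjusted p = 0.319) and centring on the common probe sets (0.22, adjusted p = 0.111).

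Lysosomal carriers gave 0 calls of 7 by limma on the first array type (0 also at an unadjusted p below 0.05) and 1 of 4 on the second. That was Slc66a1, an exporter of lysine and arginine from lysosomes, which rose by 0.46 ± 0.12 (SE) on the log2 scale, or 1.38-fold (adjusted p = 0.0434). Its probe set on the first array type gave 0.06 ± 0.08 (SE; adjusted p = 0.766). The call on the second ended when any array but PCN replicate 5 was dropped (highest adjusted p 0.125), and after quantile normalization (0.23, adjusted p = 0.151), cyclic loess (0.28, adjusted p = 0.114) and centring on the common probe sets (0.18, adjusted p = 0.15).

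Of the genes known to respond to Atf4 and amino acid shortage, 2 of 22 rose on the first array type, and 1 of 6 rose and 1 fell on the second. Ppp1r15a, which directs removal of the phosphate from the initiation factor eIF2 alpha, rose 1.46-fold (log2 fold change 0.55 ± 0.10 SE, adjusted p = 0.0126, limma). Its call held without any single array (adjusted p up to 0.0417) but not with the replicate number as a block (adjusted p = 0.0581, limma). Aars1, the alanyl-tRNA synthetase, rose 1.41-fold (adjusted p = 0.0356). Gars1, the glycyl-tRNA synthetase, rose 1.38-fold on the second array type (adjusted p = 0.0395) and had a log2 fold change of 0.29 ± 0.10 (SE; adjusted p = 0.146) on the first. Gpt2, a mitochondrial alanine aminotransferase, fell by 0.58 ± 0.13 (SE) on the log2 scale, a 1.49-fold drop (adjusted p = 0.0328). For each of Aars1, Gars1 and Gpt2, dropping any 1 of 7 arrays ended the call. The highest adjusted p was 0.0963 for Aars1 and 0.0997 for Gpt2, both on dropping corn oil replicate 4, and 0.106 for Gars1 on dropping corn oil replicate 1. The arrays that could be dropped with the call kept were PCN replicate 5 and corn oil replicate 5 for Gars1 and Gpt2, and corn oil replicates 1 and 2 and PCN replicate 2 for Aars1. After centring on the common probe sets Gars1 gave 0.18 (adjusted p = 0.137), and after quantile normalization 0.38 (adjusted p = 0.0575). Aars1 lost its call with a common median (0.49, adjusted p = 0.053, limma). Atf4 itself had a log2 fold change of 0.26 ± 0.10 (SE, adjusted p = 0.2, limma). Asns, a widely used readout of amino acid shortage, had one of 0.47 ± 0.22 (SE, adjusted p = 0.291, limma). Trib3 and Chac1 had -0.11 ± 0.23 and -0.19 ± 0.10 (SE). Cebpb had 0.50 ± 0.13 (SE, adjusted p = 0.0653, limma) and Nars1 0.51 ± 0.14 (SE, adjusted p = 0.063, limma). On the first array type 1964 of 11106 probe sets had an unadjusted p below 0.05 (limma). In this list these were Atf4, Ddit3, Shmt2, Cebpb, Ppp1r15a, Aars1, Gars1, Nars1 and Wars1, all higher, and Nupr1, lower.

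**Figure D4:**
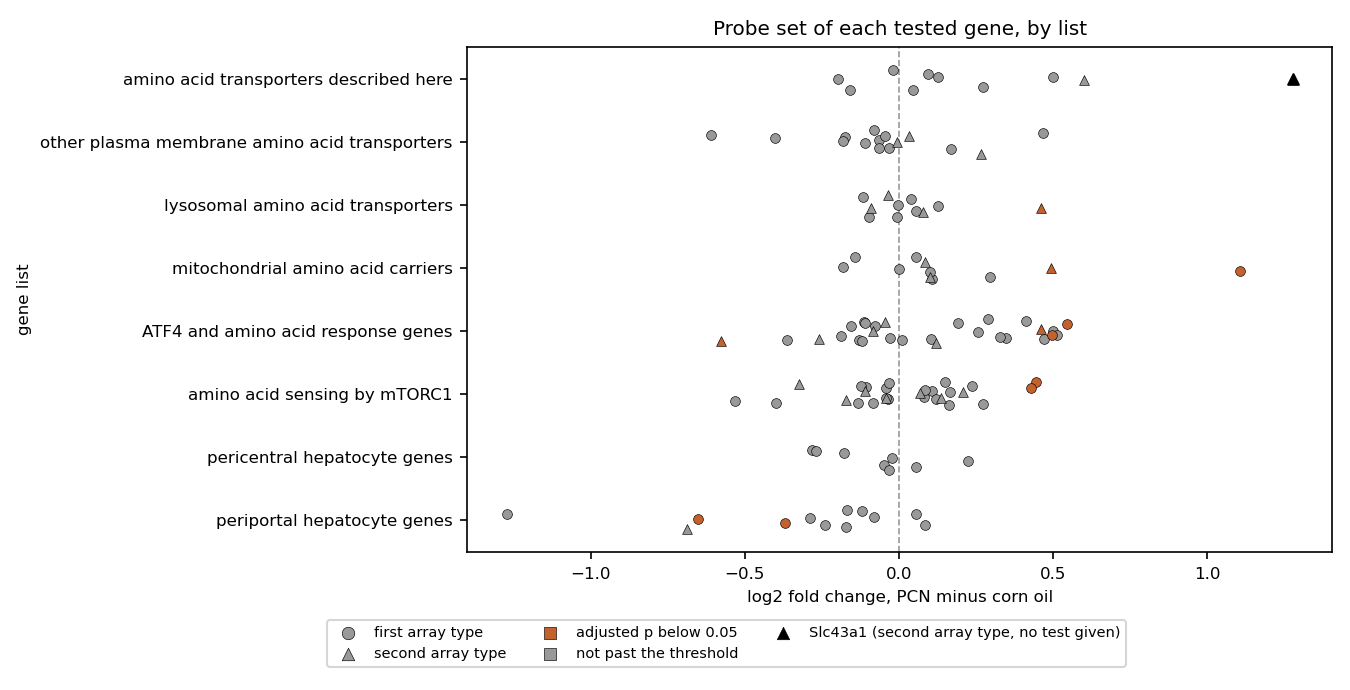
Log2 fold change of PCN over corn oil (horizontal axis) for the probe set of each tested gene, by list (vertical axis), with circles for the first array type, triangles for the second and orange for an adjusted p below 0.05. The vertical scatter within a list carries no meaning; Slc43a1, in black, has the highest value shown, 1.28, and Slc25a12 the next, 1.11, while Sds has the lowest, -1.27.

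Genes through which mTORC1, a kinase complex that senses amino acids, is controlled had 2 of 21 higher on the first array type and 0 of 7 called by limma on the second (1 had an unadjusted p below 0.05). That was Sesn1, a leucine-responsive inhibitor of the pathway, at -0.32 ± 0.09 (SE, adjusted p = 0.064, limma). On the first array type it was at -0.53 ± 0.17 (SE, adjusted p = 0.129, limma). On that type Lamtor3 and Akt1s1, higher, and Sesn1 and Flcn, lower, had an unadjusted p below 0.05 (limma) without a call. Rraga, a small GTPase of the lysosomal surface, was 1.36-fold higher (adjusted p = 0.0489), and Seh1l, a subunit of a complex that relays amino acid supply to those GTPases, was 1.35-fold higher (adjusted p = 0.0371). The call of Rraga ended when any array but corn oil replicate 1 or PCN replicate 2 was dropped, and that of Seh1l when any but PCN replicate 2 was. Their highest adjusted p was 0.126, on dropping PCN replicate 1, and 0.0919, on dropping PCN replicate 4. Rraga also lost its call with no filter (adjusted p = 0.0597, limma) and with a common median (adjusted p = 0.0635, limma). Of 11 genes of hepatocytes around the portal vein 2 fell on the first array type and 9 had a negative value. Hal, which breaks down histidine, was 1.57-fold lower (adjusted p = 0.0356) and Cyp2f4 1.29-fold lower (adjusted p = 0.0378). Dropping any of the 10 arrays ended the call of Cyp2f4 (highest adjusted p 0.093, on dropping corn oil replicate 4). For Hal the same held for all arrays but corn oil replicate 2 and PCN replicates 3 and 5 (highest 0.095, on dropping PCN replicate 1). A common median also ended the call of Cyp2f4 (adjusted p = 0.0553, limma). Sds, a serine dehydratase, had the lowest value of all lists, -1.27 ± 0.49 (SE), and missed the threshold (adjusted p = 0.192). Sds, Ass1, Hsd17b13 and Sdhd, all lower, had an unadjusted p below 0.05 (limma) without a call. Aldh1b1, the only gene of this list tested on the second array type, had a log2 fold change of -0.69 ± 0.31 (SE; adjusted p = 0.178).

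The tissue label was checked against 8 marker lists. The 8 hepatocyte markers measured were all above the filter, with a summed level between 17.22 and 17.31 in corn oil and between 17.21 and 17.37 after PCN on the log2 scale. Of 54 probe sets tested over all marker lists limma called 0 (12 had an unadjusted p below 0.05). Over all probe sets such a p was found for 1964 of 11106 on the first array type and 2919 of 10693 on the second. On the second array type, where Slc43a1 and Slc1a4 were measured, the 3 macrophage markers Cd163, Adgre1 and Cd5l had a summed level of 10.77 to 11.38 in corn oil and 11.16 to 12.07 after PCN, with a median log2 fold change of 0.40. On the first, the 5 macrophage markers had a median of 0.10. The marker values of the second array type are uncentred. The common probe sets there had a mean of 9.346 in corn oil and 9.625 after PCN. The part of this difference in the marker values was not tested. The 10 markers of stellate cells and fibroblasts on the first array type had a median of 0.19 and a summed level of 12.41 to 12.97 in corn oil and 12.85 to 13.23 after PCN, and the 4 red cell markers a median of -0.28 and summed levels of 14.11 to 14.46 and 13.63 to 14.29. Endothelial, cholangiocyte, lymphocyte and neutrophil markers on the first array type had medians of -0.04, -0.01, 0.04 and 0.33, over 6, 2, 3 and 2 tested genes. On the second array type the medians were 0.18 for endothelial (4 genes), -0.15 for stellate (2 genes) and -0.15 for lymphocyte markers (3 genes). The 1 cholangiocyte and 1 neutrophil marker tested there had log2 fold changes of -0.11 and -0.09. The part of these cells in the values of the transporters was not tested. In whole liver, fewer cells of a type and less RNA per cell cannot be told apart.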

How the data were processed

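Total RNA was prepared with RNeasy columns and DNase digestion followed by labelling of cRNA with biotin, per the labels. The authors deposited log2 values per probe set. MAS5 is named without a version, per the submitters' processing notes; normalization is not given in the sources used here, and base 2 was inferred from a maximum of 15.24.

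Members and lists were chosen with earlier results of these data known. Probe sets were named by gene identifier through RefSeq (GRCr8), which held 12754 of the 12789 single-gene probe sets of the first array type and 7530 of the 7570 of the second. Left out were the 57 controls of each type and any probe set whose mean fell under the 30th percentile (6.67 and 5.51), which left 11106 and 10693. Each array type was fitted alone with limma 3.58.1 in R 4.3.3, with treatment only, an intensity trend, two-sided tests, and Benjamini-Hochberg adjustment over all probe sets of the type. Calls needed an adjusted p below 0.05, and every adjusted p printed is from limma. The fit was tested on simulated data with independent noise for each probe set and array, which does not cover the choice of scaling. Each fold change sets PCN against corn oil, and SE is limma's moderated one. The number of arrays limits the precision. Each p-value sets the group difference against the spread between these animals, which limma moderates over all tested probe sets.

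Named were all transporters, up to 4 called genes of each list with the largest change or else the 2 with the smallest p, and the 5 probe sets nearest to Slc43a1. Genes named beside this rule as context were chosen after their values were seen. Alternatives were other filters, scalings, variance models, a pseudocount of 16 on linear values, the replicate number as a block, and leaving out each array.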

Additional observations from a re-analysis of the deposited data

How the results depend on the processing

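Of the 10 tested transporters, Slc43a1, Slc3a2, Slc7a1, Slc7a2, Slc1a2 and Slc1a4 kept their sign in every alternative run. The log2 fold change of Slc43a1 lay between 0.9996 and 1.43. The sign turned for Slc7a5 without PCN replicate 2 (0.0145; range -0.25 to 0.01 with single arrays left out), for Slc38a2 without PCN replicate 5 (-0.0143; -0.01 to 0.17), for Slc38a3 with centring on common probe sets (-0.0323), and for Slc38a4 with array weights (0.0390) and without corn oil replicates 1, 2 or 3 or PCN replicates 1 or 3 (up to 0.0352; -0.11 to 0.04); the cause was not tested. On the first array type limma called 0 transporters in every alternative. On the second the count includes Slc43a1, which chose the set, so it is a description and only the part of Slc1a4 is read. It was 1, became 2 with Slc1a4 under array weights (adjusted p = 0.0366) and the replicate block (adjusted p = 0.0292), ranged from 1 to 2 with single arrays left out, and was 0 in an unmoderated test, where Slc1a4 had an adjusted p of 0.178. PCN replicate 2 has no corn oil array of its number on the second type, so the block leaves it out of the treatment estimate there.

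The list genes called, 11 in all, became 19 when arrays were centred on the common probe sets and 2 with the replicate block. That centring put the median log2 fold change of the second array type at -0.31, against -0.03, with 210 probe sets higher and 6283 lower. The count ranged from 2 to 9 with any replicate left out, where fewer arrays were fitted. With the block Slc25a12 alone of the 11 kept its call. Ppp1r15a, kept with any single array left out, did not (log2 fold change 0.55, adjusted p = 0.0581, limma). The other call with the block was in the list of Atf4 and amino acid response genes, for a probe set not called in the main fit. Arrays of the same number showed no clear pairing, which so few pairs cannot settle. Deviations from the group means correlated between -0.301 and 0.284 on the first array type (5 pairs) and between 0.02 and 0.201 on the second (4 pairs). On these types 2 of 5 and 1 of 4 PCN arrays correlated best with their own number. With the replicate block 177 probe sets were higher and 62 lower on the first array type, against 256 and 105, and 163 and 40 on the second, against 402 and 175. Over all probe sets, higher and lower calls were 768 and 283 (first) and 868 and 607 (second) with array weights, and 77 and 27, and 25 and 21, in the unmoderated test. Leaving out 1 array gave from 107 and 47 (without corn oil replicate 4) to 343 and 104 (without PCN replicate 2) on the first, and from 69 and 15 (without corn oil replicate 4) to 907 and 572 (without PCN replicate 5) on the second. Probe sets of Slc7a1 and Slc1a2 below the filter are too dim to say more.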
